A study of Mus musculus with 6 samples.

Results

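The mouse carcinoma line mSCC-38, described by the submitters as highly tumorigenic, was set against mSCC-20, described as non-tumorigenic, across every gene model of the deposited count table. The comparison rests on 2 of the 6 samples of the series, 1 library of each line, and on 23726 gene models. Both lines were cultured from tumours raised on mouse skin with DMBA, a carcinogen that mutates DNA, and TPA, a phorbol ester tumour promoter. The other samples, used here only for context, were biopsies of healthy skin, of 2 papillomas and of a tumour from the same kind of treatment. The labels give no mouse strain, age or sex, do not say whether the lines share a tumour or a mouse, and do not say whether a line is a single clone. With 1 library per line there is no replicate error, no test and no p-value, and a difference between the libraries cannot be told apart from a difference between dishes of the same line. RNA integrity, per the labels, was 9.3 in mSCC-20 and 9.6 in mSCC-38.

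Squamous carcinomas of skin arise from keratinocytes, the cells that build the epidermis and make keratins, desmosomes and a lipid barrier. Some of these tumours keep an epithelial form, while others lose cell junctions and express genes of mesenchymal cells, such as the intermediate filament gene Vim. Such a change involves transcription factors that hold or dissolve the epithelial state, growth factor receptors and their ligands, secreted cytokines and matrix, and the enzymes that feed growth. Tumorigenic means that injected cells form tumours in a host animal.

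The libraries held 31045938 counts for mSCC-20 and 30955914 for mSCC-38, and levels are given in CPM, counts per 1000000 after TMM scaling. Of 12297 gene models at 1 CPM or more in either line, 670 were higher in mSCC-38 by a rule of size, a 4-fold ratio or more, taken with 0.5 CPM added to each side, and 10 CPM or more in the higher line, which is 5.45% of the models. The same rule placed 321 models, 2.61%, lower in mSCC-38. The median log2 ratio of mSCC-38 to mSCC-20 over these 12297 models was -0.13, and the quartiles were -0.71 and 0.58. At 16-fold or more there were 277 higher and 127 lower models. Log2 ratios include the 0.5 CPM, while folds given for single genes are plain ratios of CPM. Levels of up to 0.0896% of what the gene reached in any library were read as background, since hair genes of the skin biopsy were counted in the cultures at up to that share at the upper quartile. The mSCC-20 level of 55 higher models and the mSCC-38 level of 28 lower models lay within it, so their fold is not exact.

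**Figure D1:**
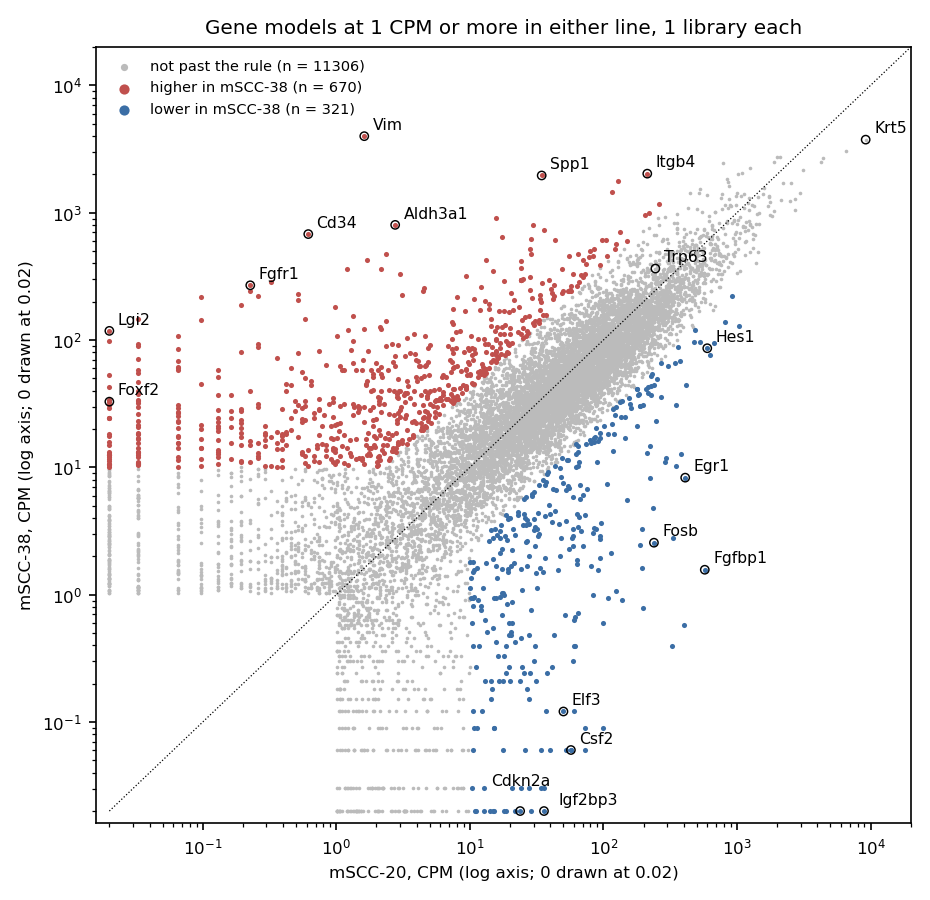
Each point is a gene model at 1 CPM or more in either line, with its CPM in mSCC-20 on the x axis and in mSCC-38 on the y axis, both on log axes with 0 drawn at 0.02, from 1 library each. The 670 models higher in mSCC-38 are red and the 321 lower are blue. Krt5 lies somewhat below the dotted line of equal levels and Trp63 somewhat above it, neither past the rule.

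Both lines expressed keratinocyte genes. The basal keratin genes stood at 9195 CPM in mSCC-20 and 3745 in mSCC-38 for Krt5, and at 6606 and 3054 CPM for Krt14. Col17a1, a hemidesmosome collagen, stood at 1021 and 879 CPM. Of 20 keratinocyte markers at 1 CPM or more, 4 were higher and 3 lower in mSCC-38, against 5.45% and 2.61% of all models. The higher ones were Itgb4, Krt17, Krt15 and Dsc3. The lower ones were Cdh1, with the lowest log2 ratio of the list at -6.52, Dsg3 and Krt16. Markers of other cell types varied by list. The summed level of the 22 leukocyte markers was 11.2 CPM in mSCC-20 and 17.1 in mSCC-38, and that of the 9 melanocyte markers 26.8 and 12.9 CPM, with none past the rule. The 12 endothelial markers summed to 8.31 and 46.9 CPM. Most of the latter was Flt1, which encodes a receptor for VEGF and was the list's only gene past the rule, at 2.18 and 40.0 CPM, while Kdr stood at 0.0974 and 0.0302 CPM and Emcn had no count in mSCC-20 and 1 in mSCC-38. The 11 adipocyte markers summed to 272 and 821 CPM with none past the rule, of which the fatty acid desaturase gene Scd1 made up 260.1 and 799.9 CPM. Adipoq had 5 and 2 counts.

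Lists of contractile and connective tissue cells were higher in part. The 10 smooth muscle and pericyte markers summed to 60.5 CPM in mSCC-20 and 528 CPM in mSCC-38, and of 6 at 1 CPM or more 2 were higher and none lower. These were Acta2, the smooth muscle actin gene, at 28.5 and 473 CPM, and Pdgfrb, at 0.779 and 21.1 CPM, while Myh11 had 6 and 3 counts and Rgs5 3 and 0. The 16 fibroblast markers summed to 51.2 and 432 CPM, and of 11 at 1 CPM or more 6 were higher and none lower. They were Col1a1, at 2.18 and 123 CPM, Fbln1, at 13.8 and 175 CPM, Col3a1, at 1.49 and 28.9 CPM, Pdgfra, Col6a3 and Lox. Of the others, Dcn was at 0.552 and 3.14 CPM, Col1a2 at 2.18 and 2.78 CPM, and Lum and Thy1 under 0.2 CPM in both lines. In the biopsies Col1a1 ranged from 593 to 1509 CPM and Fbln1 from 47.7 to 85.8 CPM. The part of such cells in the differences between the lines was not tested.

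Over the transcription factor lists together, 33 of 225 genes at 1 CPM or more were higher, 14.7%, and 19 lower, 8.44%, against 5.45% and 2.61% of all models. Among them the lines differed in which regulators of the epithelial state they kept. Of 24 epithelial transcription factor genes at 1 CPM or more, 7 were lower and 3 higher in mSCC-38. Elf3, an Ets factor of epithelial differentiation, was at 50.2 CPM in mSCC-20 and 0.121 CPM in mSCC-38, from 1546 and 4 counts. Foxn1, which acts in keratinocyte differentiation and hair, was at 28 and 0.241 CPM. The grainyhead gene Grhl2, which maintains epithelial junction genes, was at 95.4 and 3.65 CPM, 26.1-fold lower with a 95% interval for counting error of 21.8 to 31.6. Its relative Grhl1 was at 30.7 and 2.41 CPM, and Zfp750, a driver of late epidermal differentiation, at 31.5 and 1.48 CPM. Grhl3 lay at the threshold, at 48.9 and 11.8 CPM with a log2 ratio of -2.0, and missed it under each of the 3 other scalings, at -1.96 to -1.88. The factors that define the keratinocyte lineage did not follow them. Trp63, the master regulator of basal epidermis, was at 245 CPM in mSCC-20 and 364 CPM in mSCC-38. Tfap2a, another early epidermal factor, was at 81.1 and 98.2 CPM. Barx2, Tfap2c and Pitx1 went the other way, Pitx1 from 18.3 to 131 CPM.

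Of 11 factors at 1 CPM or more that drive epithelial cells towards a mesenchymal state, 7 were higher in mSCC-38, none was lower, and the median log2 ratio was 3.02. Prrx1, a mesenchymal homeobox gene, was at 2.18 CPM in mSCC-20 and 364 CPM in mSCC-38, 167-fold with an interval of 132 to 216. The E-box repressors Zeb2, at 0.357 and 72.2 CPM, and Zeb1, at 1.98 and 65.7 CPM, were both higher. Twist1 was at 4.22 and 62.1 CPM, and Snai1 at 1.07 and 12.2 CPM. Snai2 was not among them, with 80.9 CPM in mSCC-20 and 70.9 CPM in mSCC-38.

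Immediate early genes are transcribed within minutes of a growth or stress signal. Of 20 genes of AP-1 and the immediate early group at 1 CPM or more, 5 were lower in mSCC-38 and none was higher. Of all models 2.61% were lower and 5.45% higher. The median log2 ratio of the 20 genes was -1.44, and 3 of them had a ratio above 0. Fosb was at 239 CPM in mSCC-20 and 2.56 CPM in mSCC-38, Fos at 236 and 4.80 CPM, and Egr1 at 409.6 and 8.30 CPM. Atf3 and Ier2 were lower as well. The mSCC-20 levels were above every biopsy, where Fosb ranged from 6.29 to 24.7 CPM, Fos from 13.4 to 59.5 CPM and Egr1 from 83.7 to 148 CPM, while mSCC-38 lay under every biopsy. Jun, Junb and Fosl1 missed the threshold, Fosl1 at 126 and 33.1 CPM, and Fosl2 lay on the other side, at 79.3 and 202 CPM. 

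Factors of embryonic patterning split by family member. Of 22 Hox genes at 1 CPM or more 6 were higher and none lower by the rule. Yet 7 of the 22 had a ratio below 0, the lowest a log2 of -4.02 in a gene under the 10 CPM minimum. The median log2 ratio was 1.69, and 0.07 with all members that had a count. Hoxb2 to Hoxb6 formed a run of 5 neighbours on chromosome 11 that were each at least 4-fold higher, with 1 CPM as the minimum for a run. Their levels in mSCC-38 stayed low, at 4.92 to 14.3 CPM across Hoxb2, Hoxb3, Hoxb4, Hoxb5 and Hoxb6. In the Gata family, Gata4 had 390 counts in mSCC-20 and 1 in mSCC-38, while Gata6 had 1 and 442. The T-box gene Tbx20, known from heart development, was at 0.0325 CPM in mSCC-20 and 58.6 CPM in mSCC-38, and in the biopsies at no more than 0.783 CPM. Of 26 nuclear receptor genes 2 were higher and none lower, a share near the 5.45% of all models. They were the thyroid hormone receptor gene Thrb and the oestrogen receptor gene Esr1, each with 1 count in mSCC-20 and at 16.6 and 14.3 CPM in mSCC-38.

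The Id and Hes families, both inhibitory helix-loop-helix proteins, differed from each other and within themselves. Id1, Id2 and Id4, whose proteins block helix-loop-helix factors from binding DNA, were higher in mSCC-38, Id2 at 2.34 and 89.8 CPM. The Notch target Hes1 was lower, at 599 CPM in mSCC-20 and 86.2 CPM in mSCC-38, 6.95-fold with an interval of 6.69 to 7.24. Hes6, which opposes Hes1, was at 3.96 and 51.4 CPM. In the same pathway the ligand gene Jag2 was at 40.6 and 251 CPM, while the receptor gene Notch1, at 243 and 151 CPM, missed the threshold. Among the fringe genes, whose enzymes modify Notch receptors, Lfng was at 2.50 and 26.2 CPM and Mfng at 10.9 CPM and 0 counts.

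**Figure D2:**
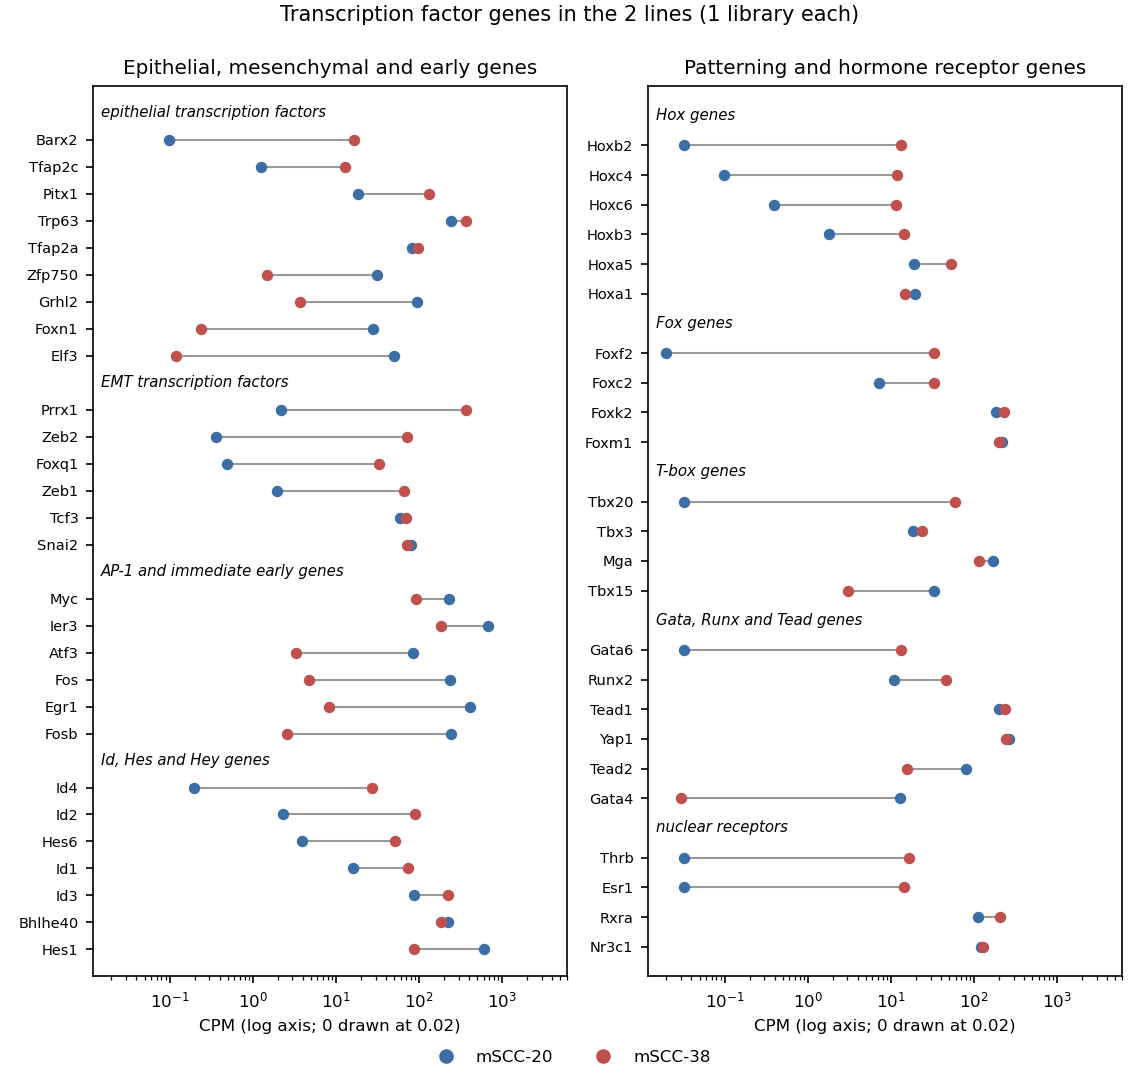
Levels in CPM (log axis, 0 drawn at 0.02) of transcription factor genes in mSCC-20 (blue) and mSCC-38 (red), 1 library each, joined by a line for each gene and grouped by list. Elf3 and Fosb lie far to the left in mSCC-38, Tbx20 and Prrx1 far to the right, while Trp63 and Snai2 nearly coincide. Genes past the rule of size were drawn ahead of others in each list.

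Promoters were read for a motif of the mesenchymal repressors and one of AP-1, the dimer of Fos and Jun proteins. RefSeq promoters were found for 491 of the 670 higher and 239 of the 321 lower genes, and the 250 bases before the start site were searched on both strands. The E-box CACCTG, bound by Snail and Zeb proteins, was in 26.4% of the lower and 13.6% of the higher genes' windows, against 14.7% of the 9670 genes at 1 CPM or more and 16.5% of all 17004 genes with a promoter. The AP-1 motif TGANTCA was in 13.0% of the lower and 6.31% of the higher genes' windows, against 4.59% and 6.39%. Over the 7849 genes at 10 CPM or more, the minimum for a call, CACCTG was in 14.2% and TGANTCA in 4.33%. The motifs can share letters, and 10 lower genes held both, in 3 of them overlapping. Median GC content was 59.2% in the lower, 61.2% in the higher and 60.8% in the 7849 genes at 10 CPM or more. These shares were not tested, and a match is a run of letters, not a shown binding site.

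The windows of 5 lower genes that hold the E-box are shown, the regulators Elf3, Grhl3 and Fosb and the pair with the lowest log2 ratios with 0.5 CPM added, Cldn4 and Rab25, with CACCTG or its reverse complement, and TGANTCA, in capitals and all else in lower case, 5′ to 3′ towards the start site. They stand on the minus strand of RefSeq build GRCm38.p6, Elf3 at chr1:135258473-135258722, Grhl3 at chr4:135573633-135573882, Rab25 at chr3:88548280-88548529, Cldn4 at chr5:134946935-134947184 and Fosb at chr7:19310046-19310295.
Elf3: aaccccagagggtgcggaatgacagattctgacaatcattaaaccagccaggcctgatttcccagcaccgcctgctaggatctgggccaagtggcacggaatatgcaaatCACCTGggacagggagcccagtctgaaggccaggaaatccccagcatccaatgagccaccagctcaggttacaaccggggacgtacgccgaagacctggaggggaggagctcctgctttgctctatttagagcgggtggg
Grhl3: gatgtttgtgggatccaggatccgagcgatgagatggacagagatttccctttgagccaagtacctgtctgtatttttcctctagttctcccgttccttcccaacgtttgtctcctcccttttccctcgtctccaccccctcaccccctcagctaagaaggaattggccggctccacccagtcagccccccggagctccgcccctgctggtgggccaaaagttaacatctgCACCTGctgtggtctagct
Rab25: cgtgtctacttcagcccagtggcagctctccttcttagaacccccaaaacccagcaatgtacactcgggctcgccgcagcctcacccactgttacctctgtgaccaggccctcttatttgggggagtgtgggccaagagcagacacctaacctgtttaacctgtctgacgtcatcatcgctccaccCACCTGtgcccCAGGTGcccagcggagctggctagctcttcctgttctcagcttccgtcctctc
Cldn4: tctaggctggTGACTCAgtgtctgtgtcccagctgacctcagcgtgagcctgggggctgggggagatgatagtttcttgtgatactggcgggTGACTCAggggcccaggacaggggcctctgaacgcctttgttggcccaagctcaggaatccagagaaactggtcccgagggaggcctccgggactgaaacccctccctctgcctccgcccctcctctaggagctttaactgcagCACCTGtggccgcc
Fosb: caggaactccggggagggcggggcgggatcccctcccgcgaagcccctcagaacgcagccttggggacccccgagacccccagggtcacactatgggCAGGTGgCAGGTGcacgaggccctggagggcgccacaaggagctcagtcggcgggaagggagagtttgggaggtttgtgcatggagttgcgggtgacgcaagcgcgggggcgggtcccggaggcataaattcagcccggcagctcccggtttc
Elf3 and Grhl3 held the E-box once, the latter 19 bases before the start site. Rab25, which encodes a vesicle-sorting GTPase of epithelia and was at 325 CPM in mSCC-20 and 0.392 CPM in mSCC-38, held it at 64 and 53 bases before the start. Cldn4, a tight junction gene at 402 and 0.573 CPM, held the E-box 14 bases before the start and TGANTCA at 240 and 158 bases. Fosb held the E-box at 153 and 146 bases and no TGANTCA.

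Receptor genes were more often higher than lower in mSCC-38. Over the receptor lists together, 43 of 196 genes at 1 CPM or more were higher, 21.9% against 5.45% of all models, and 7 were lower, with a median log2 ratio of 0.77. In the receptor tyrosine kinases, which carry growth factor signals, 8 of 33 were higher and 2 lower. Fgfr1 had 7 counts in mSCC-20 and 8919 in mSCC-38, which is 0.227 and 269 CPM, while Fgfr2, the form typical of epithelia, was at 57.9 and 35.4 CPM. The mSCC-20 level of Fgfr1 was also far under the 65.6 to 162 CPM of the biopsies. Egfr, the epidermal growth factor receptor gene, was at 35.6 and 157 CPM, and Pdgfra, a receptor gene of mesenchymal cells, at 5.49 and 33.4 CPM. Flt1 was another higher member. Erbb3 was lower, at 30.8 and 3.41 CPM. The kinase genes with the highest CPM missed the threshold, Axl with 881 and 1158 CPM and Met with 1111 and 767 CPM.

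Receptors of the interleukin 6 family and of Wnt proteins were among the higher genes. Lepr, the leptin receptor gene, had 2 counts in mSCC-20 and 2833 in mSCC-38, and Lifr, the leukaemia inhibitory factor receptor gene, 1 and 984. Osmr, the oncostatin M receptor gene, was at 7.30 and 84.3 CPM. Il6st, which encodes the subunit shared by the Lifr and Osmr receptors, missed the threshold, at 62.8 and 189.7 CPM. The interleukin 17 and 18 receptor genes Il17re, at 27.5 and 0.151 CPM, and Il18r1, at 28.5 and 0.754 CPM, were the lower ones among 34 cytokine receptor genes, of which 7 were higher. Of 19 Wnt receptor genes 5 were higher and none lower, with Fzd1 at 1.14 and 58.0 CPM and the stem cell marker Lgr6 at 0.162 and 27.7 CPM.

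Of 20 integrin genes, whose products bind cells to matrix, 6 were higher and none lower. Itgb4, the hemidesmosome integrin subunit gene, was at 213 CPM in mSCC-20 and 2025 CPM in mSCC-38, 9.50-fold with an interval of 9.26 to 9.75, and at 204 to 1301 CPM in the biopsies. Itgb3, a subunit of vitronectin receptors, had 1 and 2966 counts, and Itga2, a collagen receptor subunit gene, stood at 1.30 and 83.8 CPM. Itga3, Itgb1 and Itga6, the integrin genes of the laminin receptors of keratinocytes, missed the threshold, Itga3 with 1748 and 1336 CPM. Of 14 axon guidance receptor genes 6 were higher and none lower, among them Nrp1, a co-receptor for semaphorins and VEGF, at 2.14 and 126 CPM. Of 37 G protein-coupled receptor genes 8 were higher and 1 lower. Ptger2, the prostaglandin E2 receptor gene, had no count in mSCC-20 and stood at 24.6 CPM in mSCC-38, at least 252-fold higher when 3 counts are taken as the floor. Gprc5a was the lower one, at 272 and 35.7 CPM.

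Ligand genes differed in both directions, 37 higher and 14 lower of 153 at 1 CPM or more, which is 24.2% and 9.15% against 5.45% and 2.61% of all models. In the fibroblast growth factor list no factor gene reached 10 CPM in either line, and the difference lay in the binding protein genes Fgfbp3 and Fgfbp1. Fgfbp1, whose protein releases these factors from the matrix, was at 574 CPM in mSCC-20 and 1.57 CPM in mSCC-38. Angpt1, an angiopoietin gene, was at 0.130 and 51.5 CPM, and the neurotrophic factor genes Bdnf and Gdnf were at 12.9 and 39.6 CPM in mSCC-38 against 0.260 and 1.82 CPM. Kitl, the stem cell factor gene, was at 14.4 and 129 CPM, and Vegfa at 29.9 and 136 CPM. Pdgfa was lower, at 159 and 31.7 CPM, while the receptor gene Pdgfra was among the higher ones. Pthlh, the parathyroid hormone-like hormone gene known from squamous tumours, was at 0.974 and 182 CPM, and Igfbp4 at 1.20 and 364 CPM.

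Of 16 genes of Wnt ligands and their secreted antagonists 6 were higher and 2 lower, and of 21 in the TGF-beta superfamily list 4 were higher and 1 lower. Sostdc1, which inhibits both pathways, was at 0.260 CPM in mSCC-20 and 222 CPM in mSCC-38. The Wnt antagonist genes Dkk3, at 0.584 and 145 CPM, and Sfrp1, at 0.260 and 29.8 CPM, were higher too. Wnt5a was at 3.25 and 75.3 CPM, whereas Wnt7a, at 31.8 and 1.12 CPM, and Wnt7b, at 119.8 and 18.3 CPM, were lower. The BMP ligand gene Bmp2 and the BMP antagonist gene Grem1 each had 1 count in mSCC-20, with 32.9 and 21.7 CPM in mSCC-38. The activin antagonist gene Fst was lower, at 412 and 44.7 CPM. Of 30 guidance ligand genes 9 were higher and 1 lower, with Slit2 at 1 and 4799 counts and Sema4d lower at 39.0 and 5.10 CPM.

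Interleukin, cytokine and chemokine genes lay on both sides. Of 29 interleukin and other cytokine genes at 1 CPM or more 5 were higher and 5 lower, and of 16 chemokine genes 4 were higher and 2 lower. Csf2, which encodes the growth factor GM-CSF, had 1759 counts in mSCC-20 and 2 in mSCC-38, and Tnf 1815 and 10. Il1a, the interleukin 1 alpha gene, was at 676 and 95.5 CPM, and Il24 at 225 and 8.18 CPM. The chemokine gene Ccl20 had 2248 and 2 counts, and Cxcl1, which attracts neutrophils, stood at 479 and 96.6 CPM. Each of these 6 was higher in mSCC-20 than in any biopsy, where Il1a reached 76.2, Il24 91.8 and Cxcl1 48.6 CPM. On the opposite side Spp1, the osteopontin gene, was at 34.5 and 1959.8 CPM, 56.8-fold with an interval of 53.4 to 60.4, and 175 CPM in the tumour. Cx3cl1, the fractalkine gene, had 3 and 7207 counts, Cxcl14 2 and 473, Ccl7 61 and 794, and Ccl8 21 and 408. Il18, Tslp, Il7 and Il33 were higher as well.

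**Figure D3:**
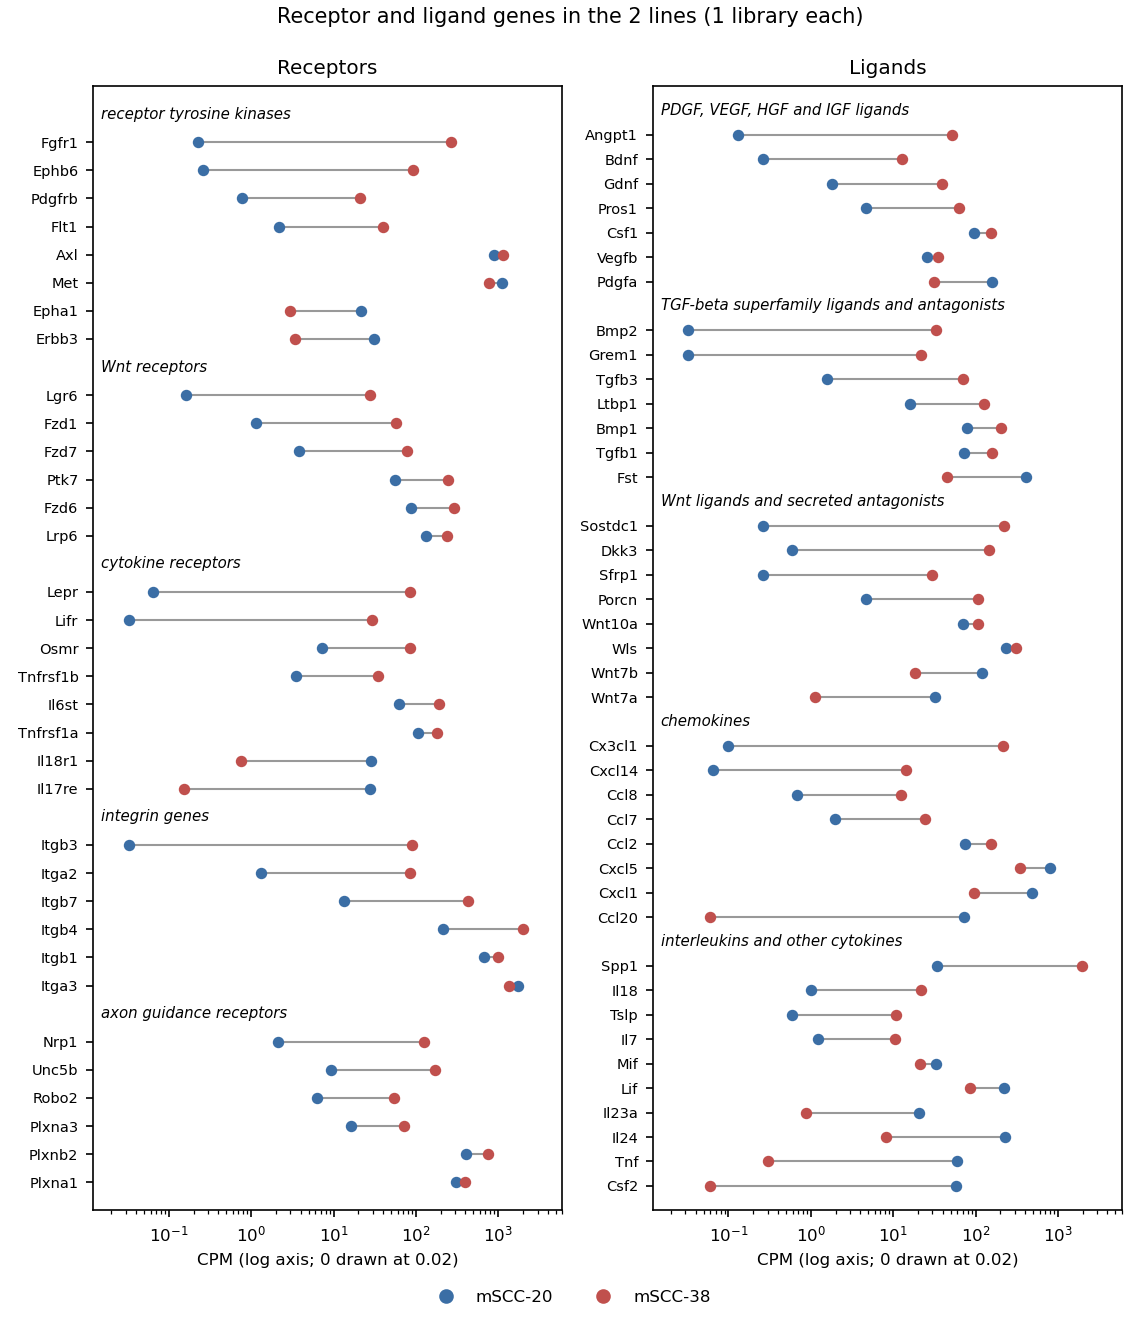
Levels in CPM (log axis, 0 drawn at 0.02) of receptor genes (left) and ligand genes (right) in mSCC-20 (blue) and mSCC-38 (red), 1 library each, grouped by list. Genes past the rule of size were drawn ahead of others in each list, so the balance of red and blue follows from the calls. Among the genes drawn, Fgfr1 and Lepr lie to the right in mSCC-38, and Csf2, Tnf and Ccl20 to the left. Of all 33 receptor tyrosine kinase genes at 1 CPM or more, 16 had a ratio above 0 and 17 below.

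Over the metabolic lists 41 of 443 genes at 1 CPM or more were higher, 9.26%, and 12 lower, 2.71%, against 5.45% and 2.61% of all models. The median log2 ratio of these 443 genes was -0.13, the same as over all models. No member of the oxidative phosphorylation list passed the rule, yet its 69 genes had a median log2 ratio of -0.70, with Atp5b at 1742 and 1343 CPM. The 24 genes of the TCA cycle had a median of -0.46. Pcx, the pyruvate carboxylase gene, was the member past the rule, at 52.4 and 6.61 CPM, and Cs, the citrate synthase gene, stood at 919 and 401 CPM. Ppargc1a, a coactivator of mitochondrial genes, had no count in mSCC-20 and stood at 14.9 CPM in mSCC-38. In glycolysis the abundant Ldha, Aldoa and Pkm2 were near equal, Ldha with 1226 and 1315 CPM, and the differences lay in minor isoenzymes. The enolase gene of muscle, Eno3, was at 7.34 and 139 CPM, Aldoc at 7.50 and 79.1 CPM, and the lactate dehydrogenase gene Ldhb lower at 10.5 and 1.51 CPM. Ldhb missed the minimum of 10 CPM with DESeq2 size factors.

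Synthesis of hyaluronan and other glycosaminoglycans, the sugar chains of the cell coat, held 9 higher and no lower genes of 29, with a median log2 ratio of 1.36. Has2, a hyaluronan synthase gene, was at 7.43 and 176 CPM, and Has3 at 0.942 and 32.4 CPM. Their receptor gene Cd44 missed the threshold, at 489 and 695 CPM. In retinoid and aldehyde metabolism 6 of 25 were higher and none lower. Aldh3a1, an aldehyde dehydrogenase gene, was at 2.76 CPM in mSCC-20 and 802 CPM in mSCC-38, 291-fold with an interval of 235 to 364, and at 11.8 to 32.4 CPM in the biopsies. The retinoic acid carrier gene Crabp2 was higher, at 12.1 and 259.7 CPM. The Ugt1a models on chromosome 1 formed a run of higher neighbours, from 296 to 365 CPM in mSCC-38 across Ugt1a10, Ugt1a2, Ugt1a5, Ugt1a6a and Ugt1a7c, but they share exons, so the counts cannot be assigned to a single enzyme.

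Other metabolic differences concerned single steps. In one-carbon metabolism the folate enzyme genes Aldh1l1, at 4.87 and 85.8 CPM, and Aldh1l2 were higher, while Shmt1, at 216 and 43 CPM, and Gcsh were lower, and the serine synthesis gene Psat1 stood at 1395 and 402 CPM. The cystine transporter gene Slc7a11 was at 21.4 and 205 CPM, and the glutathione transferase gene Gsta4 at 28.2 and 518 CPM. Among genes of ectoenzymes that work on extracellular lipids and nucleotides, Enpp2, the autotaxin gene, had 2 and 3584 counts, and Nt5e, the CD73 gene, was at 4.51 and 254 CPM. The copper carrier gene Cp was at 0.325 and 287 CPM. In lipid metabolism Cpt1a and Acsl4 were higher, Acsl4 at 205 and 958 CPM. The barrier lipid transporter gene Abca12, at 124 and 1.06 CPM, and the triglyceride synthesis gene Dgat2, at 93.9 and 2.72 CPM, were lower.

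**Figure D4:**
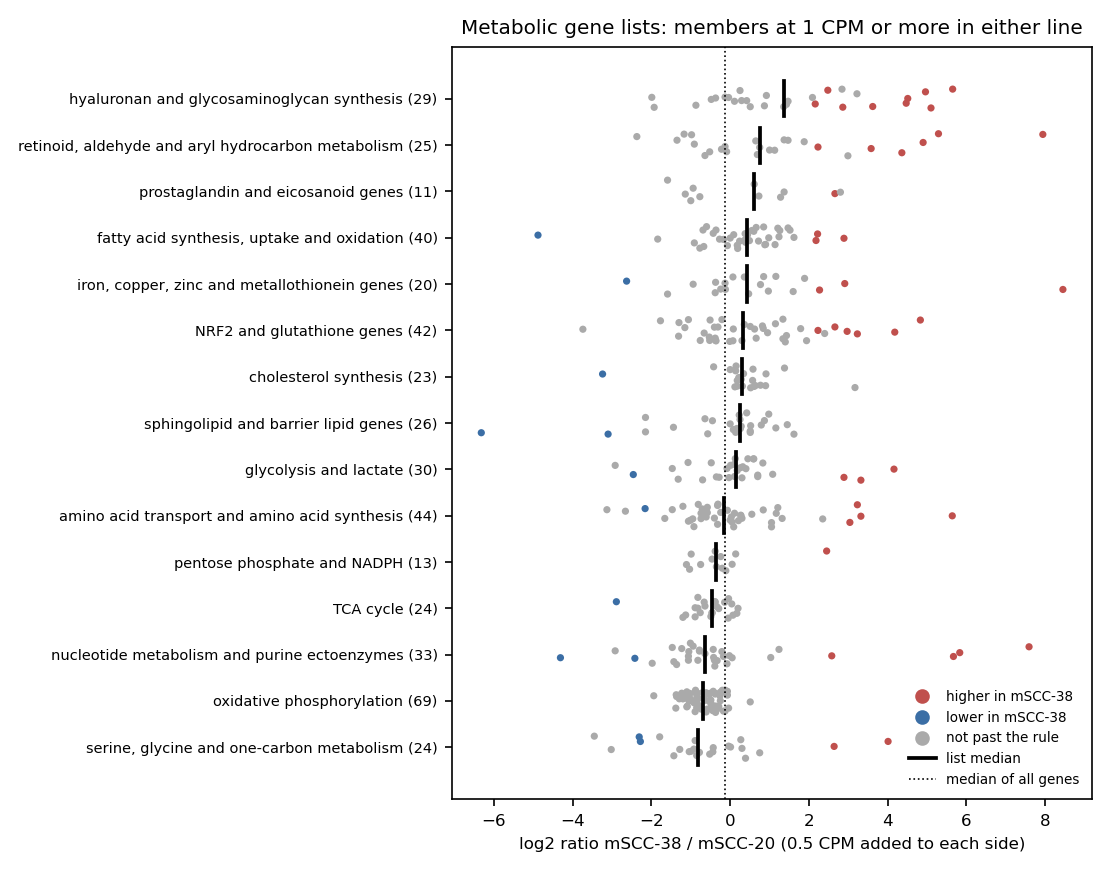
Each point is a gene at 1 CPM or more in either line, placed by its log2 ratio of mSCC-38 to mSCC-20 (x axis, 0.5 CPM added) in its metabolic list, with the number of genes in brackets. Red and blue points are past the rule of size, bars are list medians from -0.82 to 1.36, and the dotted line is the median of all genes at -0.13.

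Of 111 matrix genes at 1 CPM or more, 27 were higher and 4 lower in mSCC-38, 24.3% and 3.60%, against 5.45% and 2.61% of all models. The fibrillin gene Fbn1 was at 0.195 and 189 CPM, Thbs2, a thrombospondin gene, at 1.69 and 422 CPM, and Tgfbi at 17.3 and 647 CPM. Among matrix proteases and their inhibitors 8 of 37 were higher, such as Mmp13 at 0.747 and 34.4 CPM and the metalloprotease gene Adam19 at 0.455 and 44.0 CPM. The 4 lower genes were Plau, the urokinase gene, at 807 and 139 CPM, the collagen crosslinking enzyme gene Loxl4 at 60.5 and 0.634 CPM, Cyr61 at 623 and 76.2 CPM, and the fibulin family gene Efemp1 at 161 and 29.0 CPM.

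Some of the most unequal genes belonged to none of these groups. Cd34, a surface sialomucin gene known from hair follicle stem cells, was at 0.617 CPM in mSCC-20 and 679 CPM in mSCC-38. Stmn2, a neuronal microtubule gene, was at 0.227 and 244 CPM, Dio2, which activates thyroid hormone, at 0.0974 and 144 CPM, and Gpnmb, a membrane glycoprotein gene, at 0.519 and 228 CPM. On the other side stood Rps6ka6, a kinase gene, at 99.8 and 0.0905 CPM, Mal, a membrane trafficking gene, at 197 and 0.784 CPM, the nonmuscle myosin gene Myh10 at 330.0 and 2.81 CPM, and Pdpn, the podoplanin gene, at 138 and 0.905 CPM.

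Signalling outputs were mixed. Of 25 genes of Ras and MAPK output 3 were higher and 3 lower. The phosphatase gene Dusp4 was at 9.93 and 83.5 CPM and Dusp5 at 64.2 and 3.38 CPM, so these feedback genes lay on opposite sides. Of 27 interferon response genes 3 were higher, among them the immunoproteasome gene Psmb8 at 0.584 and 30.2 CPM, and 1 was lower, Cd274, the PD-L1 gene, at 32.5 and 4.41 CPM. H2-D1 and H2-K1, antigen presentation genes, missed the threshold, H2-D1 with 230.1 and 204 CPM.

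No expression in a line was taken as 0 counts with at least 10 CPM in the other. By this, 27 of the 9192 models at 10 CPM or more in mSCC-38, 0.294%, had no count in mSCC-20, and 12 of the 8952 at that level in mSCC-20, 0.134%, had none in mSCC-38. Counting error leaves room for up to 3 counts behind a 0, or 0.0974 CPM in mSCC-20 and 0.0905 CPM in mSCC-38. The highest of the first group were Lgi2, a secreted neuronal protein gene, at 118 CPM from 3920 counts and at least 1214-fold higher, Nrn1, a neurite growth gene, at 98.3 CPM, and the transcription cofactor gene Lmo1 at 53.3 CPM. The scavenger receptor gene Colec12 stood at 43 CPM, the forkhead gene Foxf2 at 32.8 CPM and the heparan sulfotransferase gene Hs6st2 at 24.5 CPM. Also without a count in mSCC-20 were the developmental regulators Eya1, at 15.8 CPM, and Irx1, at 10.6 CPM. All of these had counts in every biopsy, Lgi2 from 4.63 to 39.9 CPM.

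In mSCC-38 the genes without a count were led by Igf2bp3, an RNA-binding protein gene of fetal tissue and tumours, with 1106 counts and 35.9 CPM in mSCC-20, at least 397-fold lower in mSCC-38. Its relative Igf2bp1 was at 90.5 and 1.57 CPM. Khdrbs3, a splicing regulator gene, was at 28.5 CPM in mSCC-20, Zbtb10 at 21.6 CPM and the tight junction gene Cldn7 at 14.2 CPM.

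Cdkn2a, the tumour suppressor gene that encodes p16 and p19Arf, had 734 counts in mSCC-20, 23.8 CPM, and none in mSCC-38, at least 263-fold lower. In the biopsies it stood at 0.241 CPM in skin, 14 and 11.8 CPM in the papillomas and 96.5 CPM in the tumour. The table places it at chr4:88920377-88940523 of build mm9. Its neighbours were counted in mSCC-38: Cdkn2b, which encodes p15, had 70 counts in mSCC-20 and 195 in mSCC-38, Mtap 10999 and 27269, and the noncoding Gm12603 26 and 494. Of 28 p53 target and cell cycle inhibitor genes 3 were lower and none higher, against 2.61% and 5.45% of all models. Besides Cdkn2a these were Plk2, at 1027 and 128 CPM, and Btg2, at 109 and 18.3 CPM. The 30 proliferation genes had none past the rule, with Mki67 at 686 and 566 CPM. Yet 26 of the 30 had a ratio below 0, and their median log2 ratio was -0.43, against -0.13 over all models at 1 CPM or more.

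Of 15 oncofetal and imprinted genes at 1 CPM or more 5 were lower and 1 higher, against 2.61% and 5.45% of all models. Those lower in mSCC-38 included Igf2bp3 and Igf2bp1, and the higher one was the chromatin protein gene Hmga2, at 57.3 and 243 CPM. The imprinted genes Snrpn, at 15.1 and 0.0905 CPM, H19, at 18.6 and 0.241 CPM, and Mest, at 25.8 and 3.98 CPM, were the other lower ones. Gnas, at 868 and 1281 CPM, and Impact missed the threshold. Peg3 fell short of the minimum level, at 8.38 and 0.181 CPM. Snrpn, Snurf and D7Ertd715e, which overlap, formed a run of 3 neighbours with 3 or fewer counts in mSCC-38. Outside that list Esx1, a placental homeobox gene, was at 60.2 and 0.121 CPM, Plac1 at 12.9 and 0.211 CPM and Rhox10 at 14.8 CPM and 0 counts. Esx1 and Plac1 were under 0.1 CPM in all 4 biopsies. Under 1 CPM in all of them were 12 of the 321 lower models and 1 of the 670 higher, Tbx20. The same share over all models was not counted, so these counts have no base to be read against. Several lay close to the cut, with Nts at 0.973 and 3110039M20Rik at 0.926 CPM in the tumour and Erc2 at 0.905 CPM in skin. Xist, the RNA that coats the silent X chromosome of female cells, had 73 counts in mSCC-20 and 15712 in mSCC-38, which is 2.37 and 474 CPM, against 776 to 2248 CPM in the biopsies. Y-linked genes did not reach 1 CPM in either line.

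By chromosome, 10 CPM or more in either line being required, the median log2 ratio ran from -0.69 on chromosome 19 to 0.23 on chromosome 15. On chromosome 19 all 6 bins of 10 Mb with at least 20 genes had a median below 0, from -0.79 to -0.40. Every bin was below 0 on chromosomes 2, 3, 8, 16 and 17 as well, where the highest bin median lay between -0.13 and -0.08. The median over all genes at 10 CPM or more was itself -0.15, so those highest bins lay above the typical gene. The 6 bins of chromosome 19 all lay under -0.15. On chromosome 15 all 7 lay above 0, from 0.12 to 0.59. Each line was also set against the mean of the 4 biopsies, with the median over all genes subtracted. On this scale chromosome 19 stood at 0.46 in mSCC-20 and -0.12 in mSCC-38, chromosome 15 at -0.01 and 0.36, and chromosome 11 at 0.02 and 0.36. Chromosome 6 was high in both lines, at 0.34 and 0.44, and chromosome 18 low in mSCC-20, at -0.44 against -0.14. The X chromosome stood at 0.29 and 0.04. The 2 lines share the biopsies in this measure. Gene copy number was not measured. Of 358 genes on chromosome 19, 27 were lower by the rule, 7.54%, and 13 higher, 3.63%. Pcx, Psat1, Fosl1 and Cd274, each at a lower level in mSCC-38, lie on it, though Psat1 and Fosl1 did not pass the rule. Runs of 4 or more neighbours each at least 4-fold apart were, besides the Hoxb and Ugt1a runs, Sostdc1 to Etv1 on chromosome 12 and the apolipoprotein genes Apol7a to Apol9b on chromosome 15, higher in mSCC-38. The lower runs were the cornified envelope genes Sprr2h to Sprr1b on chromosome 3, with Sprr1b at 352 and 10.3 CPM, and Gpr173 to Klf8 on the X chromosome.

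**Figure D5:**
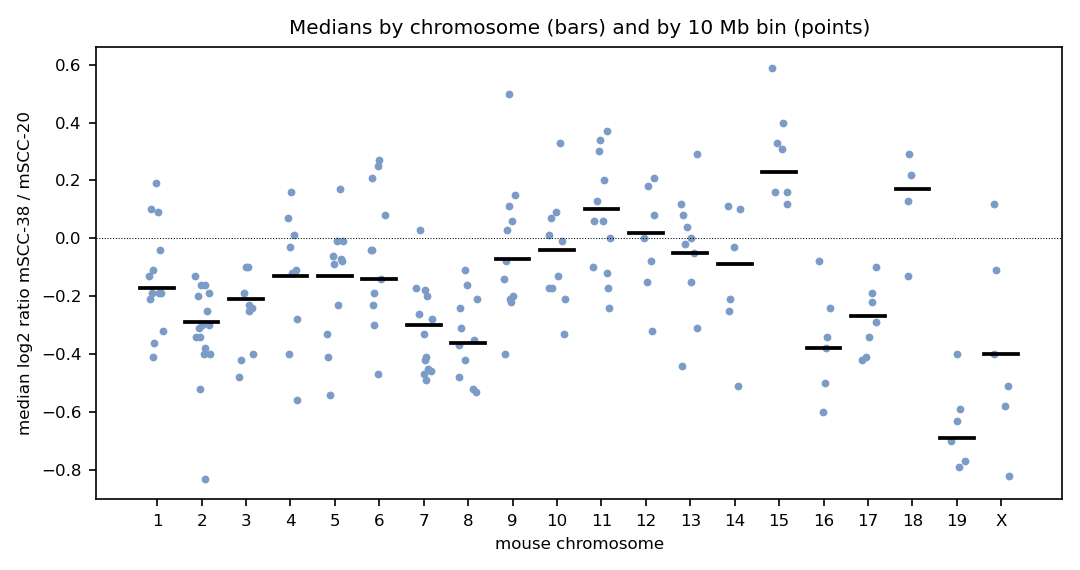
Median log2 ratio of mSCC-38 to mSCC-20 (y axis) for each mouse chromosome (x axis), over genes at 10 CPM or more in either line, as bars, with the medians of 10 Mb bins of at least 20 genes as points. Chromosome 19 is lowest at -0.69, with bins from -0.79 to -0.40, and chromosome 15 highest at 0.23.

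The called genes were mostly expressed in tissue too. Of the 670 higher models 536, 80.0%, were at 10 CPM or more in the tumour biopsy, and of the 321 lower models 213, 66.4%, against 89.4% of all models at 10 CPM or more in a culture. A biopsy mixes cell types, and in it fewer cells of a type and less RNA per cell cannot be told apart.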

How the data were processed

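RNA of 6 mouse samples was extracted in Qiazol, cleaned on miRNeasy columns and prepared with NEBNext small RNA reagents for SOLiD sequencing, per the labels' protocols. The authors deposited 1 table of raw counts per gene model and RPKM values, on build mm9 (submitters' processing notes). Aligner, counter and strand setting: not given in the sources used here. Overlapping or antisense genes and close copies may therefore share reads. The deposited RPKM were used only as an alternative to the counts.

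Counts were scaled to CPM with TMM factors of 0.992 (mSCC-20) and 1.07 (mSCC-38) from all 6 libraries (edgeR 4.0.16 in R 4.3.3). Log2 ratios and the rule of size had 0.5 CPM added to each side, while printed folds and their intervals are ratios of CPM with nothing added. With 1 library per line no test was run, and genes were taken as higher or lower at 4-fold or more with 10 CPM or more in the higher line. Intervals of ratios are exact Clopper-Pearson at 95%, and intervals and the floor of 3 counts cover counting error only. The ratio and interval steps were tested on simulated data. Genes were named by rule: the 15 highest and lowest log2 ratios, the 15 highest among genes with no count in a line, up to 5 members of a list past the rule in each direction and 3 that were not, and runs of neighbours. Other genes were named after their values were seen. The members and the 71 gene lists were chosen with earlier results of these data known. Of the gene models, 22258 were matched to RefSeq by transcript (GRCm38.p6), and 17004 genes had a promoter sequence. The quartile behind the background share, the 10 Mb bins, the runs of low counts and the chromosome medians against the biopsies were added after seeing the data.

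Alternatives were total counts, DESeq2 1.42.0 size factors and TMM factors of the cultures alone, other added values, minimum levels and folds, and models with shared names or counts left out.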

Additional observations from a re-analysis of the deposited data

How the results depend on the processing

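Against 670 higher and 321 lower genes, the counts at 50 CPM as the minimum were 289 and 143, at 2-fold 1431 and 1354, and at 8-fold 413 and 193. A minimum of 1 CPM gave 970 higher and 538 lower genes. At 2-fold, 51.4% of the genes past the rule were higher, against 67.6% at 4-fold. The 27 genes with no count in mSCC-20 became 94 with up to 3 counts and 94 under 0.1 CPM, 55 at the background share, 140 at a minimum of 1 CPM and 3 at 50 CPM. The 12 with no count in mSCC-38 became 34, 34, 30, 73 and 0 under the same settings. No test was run on these counts. Total counts moved the median of all genes by 0.11 and TMM factors of the cultures alone by 0.13 on the log2 scale, and all 670 higher genes were kept under both, but 296 and 293 of the 321 lower ones. DESeq2 size factors kept 661 higher and 299 lower genes. The median of the Fox genes and of the receptor tyrosine kinases, at -0.02 and -0.01, turned positive under the 3 other scalings. With all members that had a count, the medians of 12 lists changed sign or reached 0. These were the FGF ligands (-2.44 to 0.08), the Y-linked genes with Xist (7.37 to -0.17), the smooth muscle and pericyte markers (1.40 to -0.25), the chemokines (0.81 to -0.09) and the prostaglandin genes (0.61 to -0.09). The other 7, with medians of -0.16 to 0.40 and then of -0.15 to 0.00 when rounded, were the Sox, Gata with Runx and Tead, Ets, Notch, IGF binding protein, interleukin and amino acid lists. Of 2036 alternative values of named genes 1845 moved by less than 0.2 and none past the rule changed sign. Most of these values came from the 3 other scalings, which moved the median of all genes by 0.04 to 0.13. Each such scaling shifts nearly all genes alike, so this count says little about single genes. The deposited RPKM ratio, with nothing added, could move further, as for Barx2, at 4.85 and then 7.66. All 60 of the chromosome medians moved by less than 0.2, where total counts again shift genes alike. No paired analysis was possible because each line had 1 library, and no library could be left out. Genes under 0.0974 CPM in mSCC-20 or 0.0905 CPM in mSCC-38 cannot be told from 0 at this depth.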
